A study of Mus musculus with 9 samples.

Results

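Stellate cell and matrix transcripts were followed in mouse liver as a set of 32 genes of the 23337 in the count tables, matched by symbol and chosen for their known part in hepatic stellate cells or in the extracellular matrix. They comprise 11 collagen chains, the contractile genes Acta2 and Tagln, 7 stellate cell markers, 5 proteoglycans and matrix glycoproteins, and 7 genes of matrix remodelling with Tgfb1. All 32 were in the tables, and 30 passed the filter on low counts, among 12587 genes that did. Timp1 and Lox did not pass it and are given as reads.

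Bulk RNA sequencing was done on livers of wild-type mice taken in the fed state after 12 weeks on a diet begun at 8 weeks of age. The groups were HFD_HDCA, a 60% high-fat diet with 0.25% hyodeoxycholic acid, a secondary bile acid; HFD, the high-fat diet alone; and ND, a normal diet. Each group had 3 libraries, and the labels do not give the strain, the sex or what the percentages refer to. The series concerns fatty liver, GLP-1, invariant natural killer T cells and PPARα. Reads on genes numbered 16994353 to 20509203 per library, so that 3 reads, the limit that a count of 0 allows for counting error alone, corresponded to 0.152 to 0.182 CPM, the usual scaling of counts to library size, here with TMM factors. Hepatocyte markers summed to between 86204 and 121502 CPM in every library, and the stellate cell genes Lrat, Lhx2 and Hand2, which were not among the 32, were detected in all 9.

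Hepatic stellate cells lie between hepatocytes and the sinusoidal endothelium, where at rest they store vitamin A. After injury they can become myofibroblasts that express smooth muscle actin, encoded by Acta2, and secrete fibrillar collagens, chiefly types I and III. Fibroblasts of the portal tract and the smooth muscle of vessel walls also make collagens and contractile proteins, and TGF-β is the best known cytokine that drives matrix production.

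The sequences of 3 promoters are shown because Col1a2, Col3a1 and Acta2 are the type I and III collagen and actin genes whose levels were high in the same libraries. Each is the 250 bases before the RefSeq start of the gene in GRCm38.p6, written on the strand of the gene, and the capitals mark matches to CCAAT, to TATAAA, or to the CArG box, the binding motif of serum response factor, searched on both strands with at most 1 base other than A or T in its core.
Col1a2, chr6:4505368-4505617, plus strand: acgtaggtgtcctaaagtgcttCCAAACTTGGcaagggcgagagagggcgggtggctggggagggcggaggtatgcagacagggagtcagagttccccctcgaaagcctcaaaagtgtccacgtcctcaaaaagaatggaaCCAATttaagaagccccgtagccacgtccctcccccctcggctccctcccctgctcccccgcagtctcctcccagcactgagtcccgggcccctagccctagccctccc
Col3a1, chr1:45311288-45311537, plus strand: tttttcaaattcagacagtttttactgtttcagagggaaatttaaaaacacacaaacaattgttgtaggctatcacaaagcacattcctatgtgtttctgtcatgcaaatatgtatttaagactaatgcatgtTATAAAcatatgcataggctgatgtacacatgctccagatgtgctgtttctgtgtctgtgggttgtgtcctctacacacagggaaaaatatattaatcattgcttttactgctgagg
Acta2, chr19:34255374-34255623, minus strand: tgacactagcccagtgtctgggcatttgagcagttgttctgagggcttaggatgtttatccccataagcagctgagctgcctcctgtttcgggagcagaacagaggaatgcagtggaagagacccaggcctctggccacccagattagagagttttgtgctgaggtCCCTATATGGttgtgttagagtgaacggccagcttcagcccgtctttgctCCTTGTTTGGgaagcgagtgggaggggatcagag
The CCAAT of Col1a2 lay 109 to 105 bases before the start and its CArG match 228 to 219 bases before it, and the TATAAA of Col3a1 lay 117 to 112 bases before it. Acta2 held CArG matches 84 to 75 and 34 to 25 bases before its start. In windows of the same length before 32817 RefSeq starts, 8.596% held a CArG match, 33.83% a CCAAT and 12.37% a TATAAA. Of the 22 members with a listed promoter, 4 held a CArG match (Acta2, Col1a2, Col6a3 and Timp3), 6 a CCAAT and 2 a TATAAA (Col3a1 and Ecm1). These matches describe letters in the window and not bound sites.

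With hyodeoxycholic acid in the high-fat diet, 1 member fell against HFD and 3 fell against ND, and 0 rose in either comparison. Against HFD the member was Col14a1, and against ND the members were Col14a1, Col4a2 and Timp3. Called here means an adjusted p under 0.05 in edgeR's quasi-likelihood test over all genes, a rule that took 3.4% of the tested genes in HFD_HDCA against HFD (1.67% as higher and 1.73% as lower) and 6.47% in HFD_HDCA against ND (3.65% as higher and 2.82% as lower). In HFD against ND edgeR called 0 of the 30 members, where 0.953% of all genes were called (0.477% as higher and 0.477% as lower). At an unadjusted p under 0.05 that comparison had 0 members higher and 1 lower, where 11.5% of all genes passed, and DESeq2 also called 0 members, where it called 3.0% of all genes. In HFD_HDCA against HFD DESeq2 called 2 members lower, Col14a1 and Col4a2, where it called 8.55% of all genes, 578 higher and 498 lower. In HFD_HDCA against ND it called 5 members lower, where it called 11.1% of all genes, 729 higher and 669 lower.

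Fibrillar collagens and the contractile genes differed mainly between libraries of the same diet, with HFD 2 and HFD_HDCA 1 highest for all but the fibrillar chain Col5a1. The mean of the stellate cell markers varied little between libraries by comparison, though single markers moved in opposite directions in those libraries. Because whole liver was sequenced, fewer cells of a type and less RNA per cell cannot be told apart in any of these values.

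**Figure D1:**
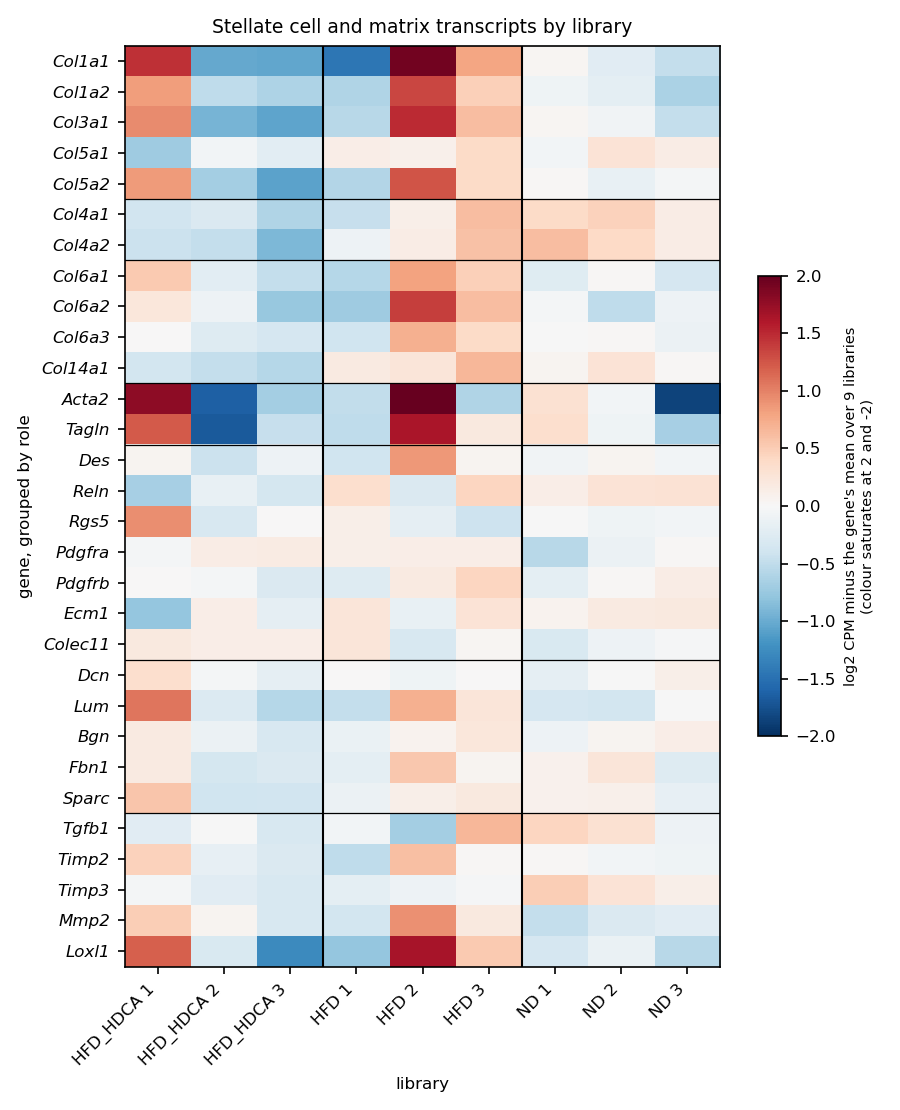
Level of the 30 tested members in each library, as log2 CPM minus the mean of the gene over the 9 libraries, with red above and blue below that mean, libraries in columns and genes in rows grouped by role. HFD 2 held the highest value of 14 of the 30 genes, and HFD_HDCA 3 the lowest of 11. Over all 12587 tested genes HFD 2 was highest for 13.99% and HFD_HDCA 3 lowest for 8.91%.

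Per transcript length, on the authors' FPKM scale and averaged over the 9 libraries, the small proteoglycan decorin led the set, with Dcn at 98.2 FPKM. Ecm1 followed at 55.1 FPKM, Bgn at 32.9, Colec11 at 23.3 and Sparc at 22.9. The highest collagens were Col14a1 at 6.88 FPKM, Col3a1 at 5.14 and Col4a1 at 4.62. The type I chains Col1a2, at 2.11 FPKM, and Col1a1, at 1.05, lay among the stellate cell markers, Col1a2 below Ecm1, Colec11, Rgs5 (8.49) and Reln (3.49) but above Des (1.98), Pdgfrb (1.35) and Pdgfra (0.811), and Col1a1 above Pdgfra alone. Acta2 averaged 3.41 FPKM, Timp1 0.362 and Lox 0.0729.

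Fibrillar collagens build the rope-like fibres of scar and of the normal portal tract. Col3a1, the type III chain and the fibrillar collagen of highest CPM, had 62.0, 16.7 and 15.3 CPM in HFD_HDCA livers 1, 2 and 3, 21.9, 91.1 and 49.4 CPM in HFD livers and 32.9, 30.7 and 23.1 CPM in ND livers. HFD 2, HFD_HDCA 1 and HFD 3 were above all ND livers, and the other libraries on the high-fat diets were below them, so the groups overlapped in every comparison. Its log2 fold change was -0.79 ± 0.64 (SE) in HFD_HDCA against HFD and 0.90 ± 0.64 in HFD against ND, with edgeR adjusted p of 0.502 and 0.663.

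Col1a1, the α1 chain of type I collagen, had 13.7, 2.32 and 2.29 CPM in HFD_HDCA livers, 1.68, 19.0 and 8.54 CPM in HFD livers and 5.0, 4.12 and 3.47 CPM in ND livers. Its partner chain Col1a2 had 23.3, 9.01 and 8.36 CPM in HFD_HDCA livers, 8.4, 32.8 and 18.0 CPM in HFD livers and 12.1, 11.3 and 8.21 CPM in ND livers. Both were highest in HFD 2 and next highest in HFD_HDCA 1, and the groups overlapped in every comparison. The log2 fold change in HFD against ND was 1.22 ± 0.90 for Col1a1 (adjusted p = 0.683, edgeR), a standard error nearly as large as the difference. In HFD_HDCA against HFD it was -0.68 ± 0.89 for Col1a1 and -0.54 ± 0.53 for Col1a2, with adjusted p of 0.695 and 0.587 in edgeR.

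Type V collagen co-assembles with type I and limits fibril width. Col5a2 had 7.75, 2.56 and 1.93 CPM in HFD_HDCA livers, 2.76, 10.3 and 5.52 CPM in HFD livers and 4.27, 3.79 and 4.11 CPM in ND livers, again highest in HFD 2 and then HFD_HDCA 1. Col5a1 had 5.94, 9.53 and 8.48 CPM in HFD_HDCA livers, 10.8, 10.6 and 12.9 CPM in HFD livers and 9.47, 12.0 and 11.0 CPM in ND livers. Unlike the other fibrillar chains Col5a1 was lowest in HFD_HDCA 1, and all HFD_HDCA livers were below all HFD livers. The Col5a1 log2 fold change of -0.52 ± 0.19 in HFD_HDCA against HFD had an unadjusted p of 0.0185 and an adjusted p of 0.143 (edgeR).

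Type IV collagen forms the network of basement membranes, and in mouse its α1 and α2 chains are encoded head to head on opposite strands (mm10, Col4a1 at chr8:11198423-11312826 and Col4a2 at chr8:11312829-11449287). Col4a2 had 17.6, 17.0 and 12.6 CPM in HFD_HDCA livers, 22.1, 26.3 and 35.7 CPM in HFD livers and 36.5, 31.4 and 26.1 CPM in ND livers. Every HFD_HDCA liver was below every liver of both other groups. Col4a2 fell against ND, with a log2 fold change of -0.99 ± 0.20 (SE) and an edgeR adjusted p of 0.0196. Against HFD its log2 fold change was -0.83 ± 0.20, which missed the threshold at an adjusted p of 0.0513.

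Col4a1 had 31.7, 33.9 and 27.3 CPM in HFD_HDCA livers, 29.95, 44.95 and 63.5 CPM in HFD livers and 54.0, 56.8 and 46.0 CPM in ND livers. All HFD_HDCA livers were below all ND livers, while HFD 1 lay among the HFD_HDCA values. The log2 fold change of Col4a1 was -0.75 ± 0.23 in HFD_HDCA against ND (adjusted p = 0.0800, edgeR) and -0.57 ± 0.23 against HFD (adjusted p = 0.181), so it was not called. In fits without ND 1, ND 2 or HFD_HDCA 3 the adjusted p of Col4a2 against ND was 0.0900, 0.0624 and 0.0704, and it stayed under 0.05 in the 6 other leave-one-out fits.

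Col14a1, a collagen that decorates the surface of fibrils (mm10, chr15:55307750-55520803), had 45.1, 41.8 and 39.2 CPM in HFD_HDCA livers, 66.0, 69.0 and 92.8 CPM in HFD livers and 60.3, 70.2 and 59.3 CPM in ND livers. Every HFD_HDCA liver was below every HFD and every ND liver, and the 3 HFD_HDCA values were close together. Col14a1 fell in HFD_HDCA against HFD, with a log2 fold change of -0.85 ± 0.14 (SE) and an edgeR adjusted p of 0.0140, and against ND, with -0.59 ± 0.14 and an adjusted p of 0.0367. Between HFD and ND the groups overlapped and the log2 fold change was 0.26 ± 0.14 (adjusted p = 0.530, edgeR).

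Without HFD_HDCA 3 the adjusted p of Col14a1 against HFD was 0.0630, and in the 8 other leave-one-out fits it was at most 0.0345 (edgeR). The call against ND was less stable, with an adjusted p of 0.107, 0.135, 0.0771, 0.0512, 0.0639 and 0.123 in fits without ND 1, ND 2, ND 3, HFD_HDCA 1, HFD_HDCA 2 and HFD_HDCA 3.

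**Figure D2:**
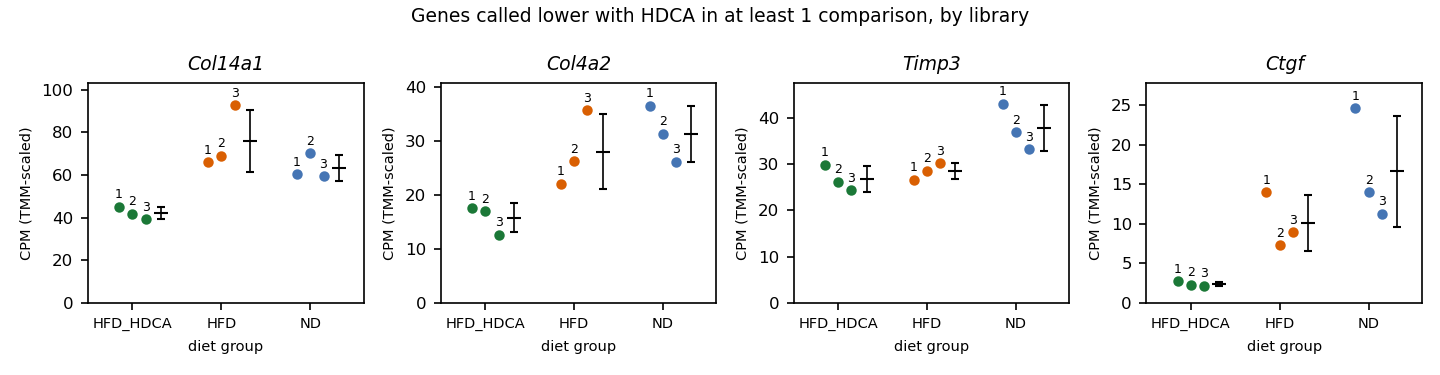
CPM of Col14a1, Col4a2, Timp3 and the matricellular gene Ctgf in each library (dots with the replicate number), with the group mean and SD (bars, n = 3 libraries). For Col14a1 the HFD_HDCA livers sit between 39.2 and 45.1 CPM, below all HFD and ND livers.

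Type VI collagen forms beaded microfilaments at the cell surface, and its 3 chains here shared with most fibrillar chains a highest value in HFD 2. They stood out less in HFD_HDCA 1, where log2 CPM minus the mean of the gene over the 9 libraries was 0.52 for Col6a1, 0.23 for Col6a2 and 0.001 for Col6a3. Col6a1 had 14.1, 8.37 and 6.98 CPM in HFD_HDCA livers, 6.5, 17.2 and 13.6 CPM in HFD livers and 8.22, 9.92 and 7.69 CPM in ND livers. Col6a2 had 5.75, 4.53 and 2.83 CPM in HFD_HDCA livers, 2.92, 12.9 and 7.55 CPM in HFD livers and 4.74, 3.36 and 4.51 CPM in ND livers. HFD 2 was highest for both and the groups overlapped in each comparison. Col6a3 had 7.57, 6.33 and 5.96 CPM in HFD_HDCA livers, 5.69, 12.5 and 9.95 CPM in HFD livers and 7.49, 7.70 and 6.94 CPM in ND livers, with HFD 2 highest and HFD 1 lowest. None of the 3 was called by edgeR or by DESeq2 in any comparison, 0 had an unadjusted p under 0.05, and the widest of their log2 fold changes was 0.89 ± 0.46 for Col6a2 in HFD against ND (adjusted p = 0.522, edgeR).

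Acta2, which encodes α-smooth muscle actin, the usual marker of activated stellate cells and of vascular smooth muscle, had 14.1, 1.16 and 2.41 CPM in HFD_HDCA livers, 2.76, 38.4 and 2.55 CPM in HFD livers and 4.94, 3.79 and 0.983 CPM in ND livers. A single HFD liver, HFD 2, was 14.5 times the mean of the other HFD livers, and HFD_HDCA 1 was 7.91 times the mean of the other HFD_HDCA livers. Tagln, encoding the actin-binding protein transgelin, had 22.0, 2.79 and 6.68 CPM in HFD_HDCA livers, 6.45, 29.0 and 10.6 CPM in HFD livers and 11.8, 8.73 and 5.78 CPM in ND livers. It was high in the same libraries as Acta2, and the groups overlapped in every comparison for both genes. Acta2 had the widest spread within groups of the 30 members, with a standard deviation of 1.75 on the log2 scale. Its log2 fold change was -1.31 ± 1.23 in HFD_HDCA against HFD and 2.16 ± 1.28 in HFD against ND, with edgeR adjusted p of 0.572 and 0.598. The Tagln locus overlaps the coding gene Pcsk7, so some of its reads may be shared.

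**Figure D3:**
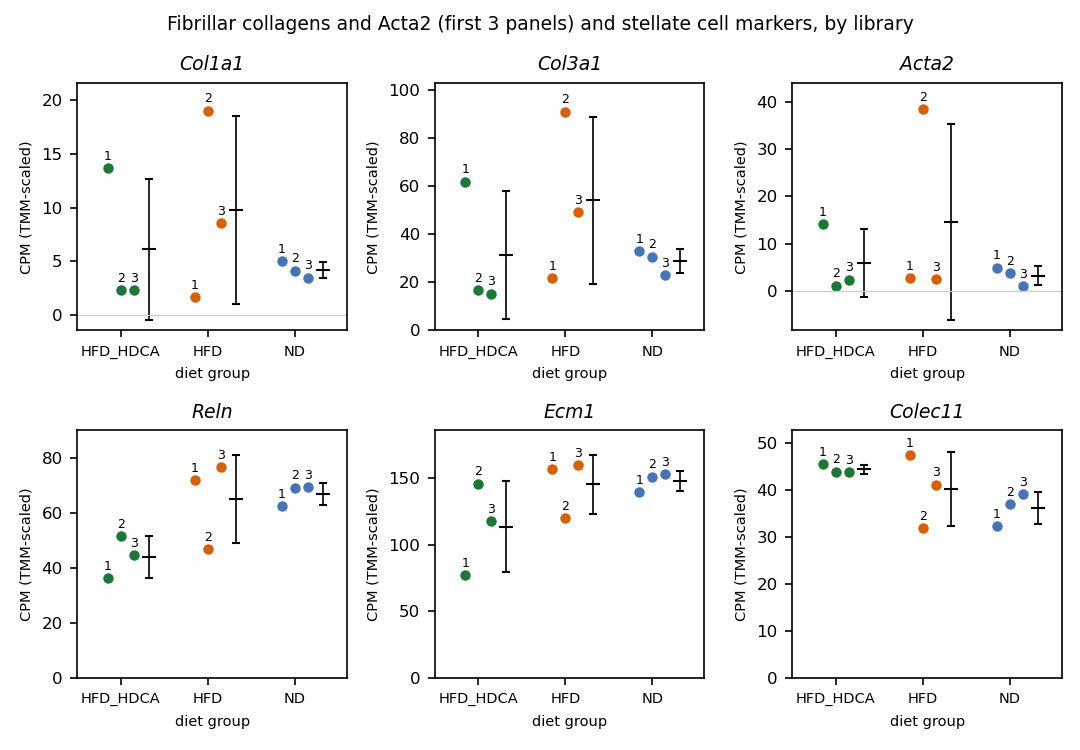
CPM of the fibrillar collagens Col1a1 and Col3a1, of Acta2, and of the stellate cell markers Reln, Ecm1 and Colec11 in each library (dots with the replicate number), with the group mean and SD (bars, n = 3 libraries). HFD 2 and HFD_HDCA 1 are the top libraries for Col1a1, Col3a1 and Acta2, and are the lowest of their own groups for Reln and Ecm1.

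The 7 stellate cell markers varied less within groups than the fibrillar collagens other than Col5a1 did. The standard deviation of Col5a1 within groups, 0.24 on the log2 scale, lay inside the range of the markers, 0.19 to 0.40. Ecm1, a secreted matrix glycoprotein and the marker of highest CPM, had 77.2, 146 and 117 CPM in HFD_HDCA livers, 156, 119.8 and 159.8 CPM in HFD livers and 139, 151 and 153 CPM in ND livers. Its lowest values were in HFD_HDCA 1, HFD_HDCA 3 and HFD 2. Reln, which encodes the secreted glycoprotein reelin, had 36.1, 51.4 and 44.6 CPM in HFD_HDCA livers, 71.8, 46.9 and 76.7 CPM in HFD livers and 62.4, 69.1 and 69.4 CPM in ND livers. All HFD_HDCA livers were below all ND livers, and HFD 2 lay among the HFD_HDCA values. The log2 fold change of Reln was -0.60 ± 0.19 in HFD_HDCA against ND and -0.56 ± 0.19 against HFD, and at adjusted p of 0.0802 and 0.117 (edgeR) neither was called. DESeq2 did call Reln lower against ND, and edgeR called it lower against HFD when HFD 2 was left out.

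Colec11, a collectin of the lectin complement pathway, had 45.6, 43.9 and 43.8 CPM in HFD_HDCA livers, 47.4, 31.8 and 41.2 CPM in HFD livers and 32.3, 37.0 and 39.1 CPM in ND livers. All HFD_HDCA livers were above all ND livers, with an adjusted p of 0.215 (edgeR). Rgs5, a regulator of G protein signalling typical of pericytes, had 36.2, 15.2 and 19.1 CPM in HFD_HDCA livers, 20.6, 16.8 and 14.2 CPM in HFD livers and 18.9, 17.8 and 18.3 CPM in ND livers, with HFD_HDCA 1 alone standing above the others. Des, encoding the intermediate filament desmin, had 5.51, 3.89 and 4.93 CPM in HFD_HDCA livers, 3.95, 9.75 and 5.52 CPM in HFD livers and 5.05, 5.47 and 5.09 CPM in ND livers. Only HFD 2 stood out for Des, and its groups overlapped in each comparison.

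The PDGF receptors transmit the growth signals that make stellate cells divide. Pdgfra had 7.03, 7.96 and 8.06 CPM in HFD_HDCA livers, 7.80, 7.93 and 7.92 CPM in HFD livers and 4.84, 6.61 and 7.35 CPM in ND livers. All HFD livers were above all ND livers, but the log2 fold change of 0.33 ± 0.17 was not called (adjusted p = 0.513, edgeR). Pdgfrb had 9.81, 9.47 and 8.00 CPM in HFD_HDCA livers, 8.12, 11.1 and 13.2 CPM in HFD livers and 8.54, 9.92 and 10.9 CPM in ND livers, and its groups overlapped in every comparison.

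Among the proteoglycans and matrix glycoproteins, Dcn and Bgn varied least within groups, and Lum was highest in the libraries that were highest for most fibrillar collagens. Dcn, encoding the collagen-binding proteoglycan decorin, had 288, 221 and 202 CPM in HFD_HDCA livers, 229, 215 and 228 CPM in HFD livers and 201, 225 and 248 CPM in ND livers. Bgn, encoding the related biglycan, had 114, 92.3 and 80.1 CPM in HFD_HDCA livers, 91.5, 105 and 117 CPM in HFD livers and 93.8, 104 and 110.4 CPM in ND livers. Dcn and Bgn overlapped between groups in every comparison, with HFD_HDCA 1 the highest of its group for each. Lum, encoding lumican, which binds fibrils as decorin does, had 23.3, 9.12 and 7.4 CPM in HFD_HDCA livers, 7.85, 18.3 and 13.1 CPM in HFD livers and 8.69, 8.56 and 11.0 CPM in ND livers. HFD_HDCA 1 and HFD 2 were the top libraries for Lum.

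Sparc, a matricellular protein that binds collagen, had 99.1, 51.3 and 52.0 CPM in HFD_HDCA livers, 62.3, 73.6 and 77.4 CPM in HFD livers and 71.9, 73.0 and 60.0 CPM in ND livers, and Fbn1, the microfibril protein fibrillin-1, had 3.82, 2.61 and 2.71 CPM in HFD_HDCA livers, 2.92, 4.95 and 3.49 CPM in HFD livers and 3.59, 4.01 and 2.78 CPM in ND livers. HFD_HDCA 1 was highest for Sparc, and HFD 2 was highest for Fbn1, followed by ND 2. edgeR and DESeq2 called 0 of these 5 genes in each of the 3 comparisons, and 0 had an unadjusted p under 0.05.

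Timp3, an inhibitor of metalloproteinases that is bound to the matrix, was the exception among the remodelling genes. It had 29.9, 26.2 and 24.3 CPM in HFD_HDCA livers, 26.6, 28.6 and 30.2 CPM in HFD livers and 43.1, 36.9 and 33.3 CPM in ND livers. Every liver on either high-fat diet was below every ND liver, and the HFD_HDCA and HFD livers overlapped. Timp3 fell in HFD_HDCA against ND, with a log2 fold change of -0.50 ± 0.13 (SE) and an edgeR adjusted p of 0.0443. In HFD against ND the log2 fold change was -0.41 ± 0.12, with an unadjusted p of 0.00815 and an adjusted p of 0.213 (edgeR). The call against ND passed in 2 of the 9 leave-one-out fits, those without HFD 1 and HFD_HDCA 1. In the other 7 its adjusted p was 0.182, 0.111 and 0.0575 without ND 1, ND 2 and ND 3, 0.0570 and 0.0582 without HFD 2 and HFD 3, and 0.0718 and 0.142 without HFD_HDCA 2 and HFD_HDCA 3. Timp3 (mm10, chr10:86300412-86349505) lies inside Syn3 on the other strand, and how strand was used in counting is not given in the sources used here.

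Timp2, a soluble inhibitor of the same family, had 21.9, 14.1 and 12.996 CPM in HFD_HDCA livers, 11.1, 24.1 and 16.0 CPM in HFD livers and 16.0, 15.2 and 14.9 CPM in ND livers. Mmp2, the gelatinase made by stellate cells and fibroblasts, had 5.33, 3.89 and 2.95 CPM in HFD_HDCA livers, 2.87, 7.22 and 4.32 CPM in HFD livers and 2.65, 3.04 and 3.18 CPM in ND livers. Both were highest in HFD 2 and then HFD_HDCA 1. Loxl1, a lysyl oxidase family enzyme that cross-links elastin and collagen, had 4.06, 1.34 and 0.602 CPM in HFD_HDCA livers, 0.921, 5.66 and 2.5 CPM in HFD livers and 1.3, 1.52 and 1.10 CPM in ND livers. It was likewise highest in HFD 2, at 3.31 times the mean of the other HFD livers, and in HFD_HDCA 1, at 4.19 times the mean of the other HFD_HDCA livers.

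Tgfb1, the cytokine TGF-β1, went the other way in HFD 2. It had 6.48, 7.55 and 6.08 CPM in HFD_HDCA livers, 7.37, 4.70 and 12.2 CPM in HFD livers and 10.3, 9.43 and 7.11 CPM in ND livers, with HFD 2 lowest and HFD 3 highest of all 9. Its log2 fold change was -0.27 ± 0.30 in HFD_HDCA against HFD and -0.42 ± 0.30 against ND, and it was not called.

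Timp1, an inhibitor induced in injured liver, had 35, 2 and 0 reads in HFD_HDCA livers, 0, 8 and 5 reads in HFD livers and 2, 3 and 1 reads in ND livers. Lox, the founding lysyl oxidase, had 13, 3 and 7 reads in HFD_HDCA livers, 2, 16 and 7 reads in HFD livers and 2, 3 and 5 reads in ND livers. Timp1 was detected most in HFD_HDCA 1 and Lox most in HFD 2, then HFD_HDCA 1, and in the fit with no filter on low counts neither was called, with edgeR adjusted p of 0.580, 0.367 and 0.904 for Timp1 and 0.985, 0.377 and 0.709 for Lox in HFD_HDCA against HFD, HFD_HDCA against ND and HFD against ND.

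Collagens and stellate cell markers were set side by side in each library through the mean log2 deviation of a list, which is the average over its genes of log2 CPM minus the mean of the gene over the 9 libraries. For the 5 fibrillar collagens this mean was 0.68, -0.64 and -0.80 in HFD_HDCA livers, -0.61, 1.22 and 0.53 in HFD livers and -0.01, -0.07 and -0.29 in ND livers. For the 7 stellate cell markers it was -0.04, -0.07 and -0.09 in HFD_HDCA livers, 0.05, 0.04 and 0.13 in HFD livers and -0.13, 0.03 and 0.08 in ND livers. The fibrillar collagen mean thus ran from -0.80 to 1.22, while the marker mean ran from -0.13 to 0.13. The marker mean averages over single markers that moved in opposite directions within a library. In HFD_HDCA 1 the deviation was 0.93 for Rgs5 but -0.78 for Ecm1 and -0.66 for Reln. In HFD 2 it was 0.86 for Des but -0.32 for Colec11 and -0.28 for Reln.

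The difference between all 11 collagens and the 7 markers was 0.31, -0.38 and -0.61 in HFD_HDCA livers, -0.52, 0.83 and 0.41 in HFD livers and 0.20, -0.00 and -0.23 in ND livers. Its zero is set by the mean over the 9 libraries, so the values show only how libraries differed from one another, and the 3 groups overlapped. The median standard deviation within groups, on the log2 scale, was 0.79 over the fibrillar collagens, 0.52 over all collagens, 1.42 over Acta2 and Tagln, 0.27 over the stellate cell markers and 0.21 over all tested genes.

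**Figure D4:**
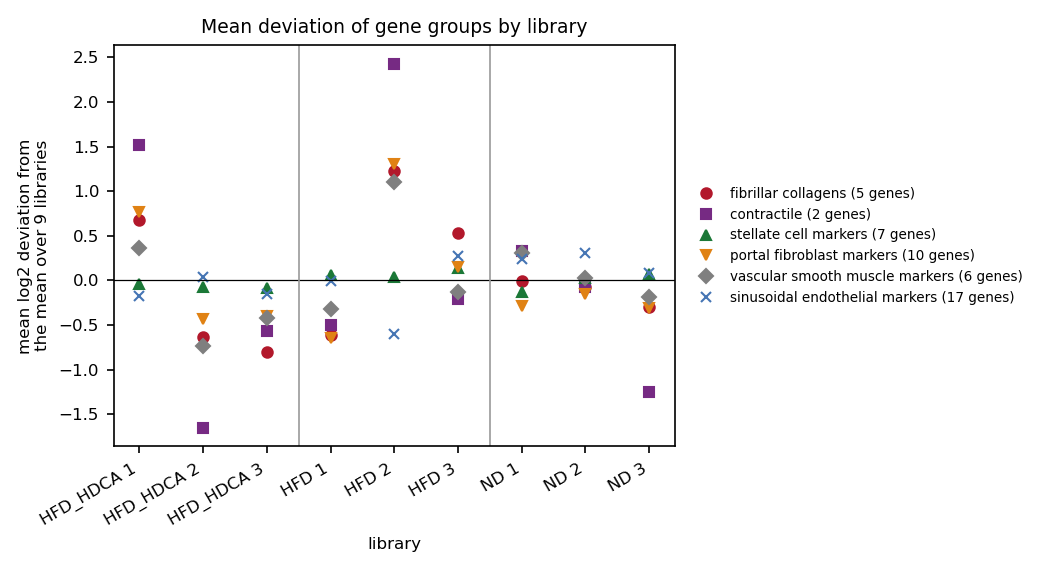
Mean log2 deviation from the mean over 9 libraries, for each library, of 5 fibrillar collagens, Acta2 and Tagln (contractile), 7 stellate cell markers, and marker lists of portal fibroblasts, vascular smooth muscle and sinusoidal endothelium. In HFD 2 the fibrillar collagens stand at 1.22 and the portal fibroblast markers at 1.31. The stellate cell markers stand at 0.04 there, a mean over genes that moved in opposite directions.

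Markers of other cells that make matrix differed between the same libraries. The 14 portal fibroblast markers, all but 4 of which passed the filter, summed to 179, 84.8 and 85.6 CPM in HFD_HDCA livers, 76.2, 232 and 141 CPM in HFD livers and 71.2, 73.4 and 62.7 CPM in ND livers. Dpt, encoding dermatopontin, had 29.6, 5.46 and 8.30 CPM in HFD_HDCA livers, 4.01, 27.2 and 5.78 CPM in HFD livers and 4.48, 4.99 and 3.18 CPM in ND livers. HFD 2 and HFD_HDCA 1 were the top libraries for Dpt, which was chosen after its values were seen, and for the sum. Among the 10 tested, 6 markers were highest in HFD 2, 2 in HFD_HDCA 1, 1 in HFD 3 and 1 in ND 3. edgeR called 0 of the 10 in each comparison. In HFD against ND DESeq2 called 1 higher, where it called 3.0% of all genes.

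The 12 vascular smooth muscle markers summed to 85.4, 76.8 and 80.0 CPM in HFD_HDCA livers, 104, 177 and 110.1 CPM in HFD livers and 112, 103 and 106 CPM in ND livers. The sum was highest in HFD 2, and in HFD_HDCA 1 it was below every HFD and ND liver. The mean log2 deviation of the 6 tested markers, which weighs each gene alike, ranked HFD_HDCA 1 differently. It was 1.10 in HFD 2, then 0.36 in HFD_HDCA 1 and 0.31 in ND 1. Most of the sum was Mylk, encoding myosin light chain kinase, which had 61.0, 65.3 and 65.8 CPM in HFD_HDCA livers, 90.5, 113 and 91.8 CPM in HFD livers and 90.7, 84.4 and 88.6 CPM in ND livers. Of the 6 markers tested, Mylk fell by 0.62 against HFD (adjusted p = 0.0164), and against ND Mylk fell by 0.46 (adjusted p = 0.0367) and Smtn, encoding the cytoskeletal protein smoothelin, by 0.80 (adjusted p = 0.0431, edgeR). Over all tested genes 1.73% fell against HFD and 2.82% fell against ND. The Mylk calls held in 8 of 9 leave-one-out fits against HFD and 4 of 9 against ND, and the Smtn call in 2 of 9.

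Among the 6 tested, 4 markers were highest in HFD 2, 1 in HFD_HDCA 1 and 1 in ND 1. Myh11, Cnn1 and Actg2, chosen after their values were seen, were highest in HFD 2. Myh11, the smooth muscle myosin heavy chain, had 6.78, 0.988 and 1.99 CPM in HFD_HDCA livers, 1.57, 25.9 and 2.76 CPM in HFD livers and 3.02, 2.38 and 1.5 CPM in ND livers. Cnn1 and Actg2, which mark mature smooth muscle, reached 5.66 and 5.10 CPM in HFD 2 and were at most 1.21 CPM in every other library, with Cnn1 at 0 in HFD 3 and ND 3. The list also holds Des, one of the 32.

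The 17 sinusoidal endothelial markers summed to 549, 612 and 539.9 CPM in HFD_HDCA livers, 603, 366 and 684 CPM in HFD livers and 702, 718 and 624 CPM in ND livers. The 18 macrophage markers summed to 1274, 813 and 671 CPM in HFD_HDCA livers, 820.0, 304 and 1453 CPM in HFD livers and 809.8, 866 and 743 CPM in ND livers. Both sums were lowest in HFD 2. The endothelial sum was also lower in every HFD_HDCA liver than in every ND liver. In that comparison 3 of the 17 endothelial markers were positive and 14 negative, with a median log2 fold change of -0.36. The groups were separated as lower for 9 and as higher for 3, where 16.1% and 17.8% of all genes were. edgeR called 0 of the 17, where 6.47% of all genes were called. The chemokine receptor Ccr2, a marker of recruited monocytes, was the macrophage marker called, and rose by 1.39 in HFD_HDCA against ND (adjusted p = 0.0498, edgeR), a call held in 3 of 9 leave-one-out fits. It was 1 of 17 macrophage markers tested, where 3.65% of all genes rose. The 10 cholangiocyte markers were highest in HFD_HDCA 1, then HFD 2, at 139, 83.4 and 73.4 CPM in HFD_HDCA livers, 64.8, 106 and 81.1 CPM in HFD livers and 73.4, 64.6 and 66.6 CPM in ND livers. The 8 mesothelial markers summed to at most 9.48 CPM in any library, and Slurp1 among them was at 0 in all 9. The part of these other cell types in the collagen and actin values was not tested.

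Across all members, the median log2 fold change in HFD_HDCA against HFD was -0.39, with 4 positive and 26 negative, while the median of all tested genes was -0.00. It was -0.60 for the collagens, all 11 of them negative, and -0.25 for the stellate cell markers, of which 2 were positive and 5 negative. For 3 members, the collagens Col14a1, Col4a2 and Col5a1, the HFD_HDCA livers were all below the HFD livers, and for 0 were they all above, where 11.1% of all genes were separated as lower and 11.3% as higher. Without HFD 2 the median was -0.04 over all members and -0.24 over the collagens, and without HFD 1 it was -0.53 and -0.94. Without both HFD 2 and HFD_HDCA 1, a choice made after seeing the data, it was -0.39 and -0.62. Each was the highest of its group for most fibrillar collagens, so leaving out both lowers these collagens on both sides. The fit therefore cannot show whether the medians depend on those libraries.

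In HFD_HDCA against ND the medians were 0.03 for all members, 0.01 for the collagens and -0.10 for the stellate cell markers, and 0.03 for all tested genes. Of the members 16 were positive and 14 negative. The HFD_HDCA livers were all below the ND livers for 5 members, Col14a1, Col4a1, Col4a2, Reln and Timp3, and all above them for Colec11, where 16.1% of all genes were separated as lower and 17.8% as higher. Without HFD_HDCA 1 the collagen median was -0.65.

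In HFD against ND the medians were 0.21 for all members, 0.53 for the collagens and 0.15 for the stellate cell markers, and 0.02 for all tested genes. Of the collagens 9 were positive and the type IV chains were negative. In leave-one-out fits the median was 0.11 (without HFD 2) to 0.35 (without HFD 1) over all members, 0.22 to 0.83 without the same libraries over the collagens, and 0.01 (without HFD 1) to 0.21 (without ND 3) over the markers. Separation of the groups was seen for 1 member as higher, Pdgfra, and for 1 as lower, Timp3, where 20.1% of all genes were separated in either direction, 10.9% as higher and 9.2% as lower. The HFD_HDCA and HFD comparisons with ND share the ND libraries, and the comparison of HFD_HDCA with HFD shares the HFD libraries.

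The counts of called members depended on single libraries, as did the share of all genes called. In HFD_HDCA against HFD the count of 1 became 0 without HFD_HDCA 3, 2 without HFD 2 and 4 without HFD 1, where 0.993%, 1.56% and 5.26% of all genes were called. In HFD_HDCA against ND the count of 3 became 0 without ND 1, ND 2 or HFD_HDCA 3, where 1.54%, 2.69% and 2.41% of all genes were called. It became 1 without ND 3, where 2.6% were called, and 1 without HFD_HDCA 2, where the share of all genes was 9.48%.

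Leaving out HFD 1 and HFD_HDCA 1 together changed the counts further. The clock genes had their highest mean log2 deviation in HFD 1, at 0.68, and the acute phase genes theirs in HFD_HDCA 1, at 2.73. Of the clock genes Per2 fell in HFD_HDCA against HFD, by 2.29 (adjusted p = 0.0128), and against ND (adjusted p = 0.0372), and of the hepatocyte markers Cps1, Tat and Hnf4a fell against ND (adjusted p of 0.00619, 0.0146 and 0.0431, edgeR). These were 1 of 12 clock genes in each comparison and 3 of 8 hepatocyte markers against ND. Of all tested genes 1.73% fell against HFD and 2.82% fell against ND. The Per2 calls held in 9 and 3 of 9 leave-one-out fits, and those of Cps1, Tat and Hnf4a in 9, 6 and 2. HFD 1 was the HFD liver of lowest fibrillar collagen mean and HFD_HDCA 1 the HFD_HDCA liver of highest. Leaving them out therefore widens the collagen differences by itself, and larger counts follow in part from the choice of libraries. This pair, like the other alternatives, was chosen with earlier results of these data known. With both left out 5 members were called higher in HFD against ND, namely Col1a1, Col1a2, Col3a1, Col6a1 and Col6a2, and 13 lower in HFD_HDCA against HFD, 10 of them collagens with Lum, Sparc and Loxl1, where 4.54% and 7.7% of all genes were called. With HFD 2 in place of HFD 1 left out, a choice made after seeing the data, edgeR called 0 in HFD against ND and 2 in HFD_HDCA against HFD, Col14a1 and Reln, where 0.814% and 2.56% of all genes were called.

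**Figure D5:**
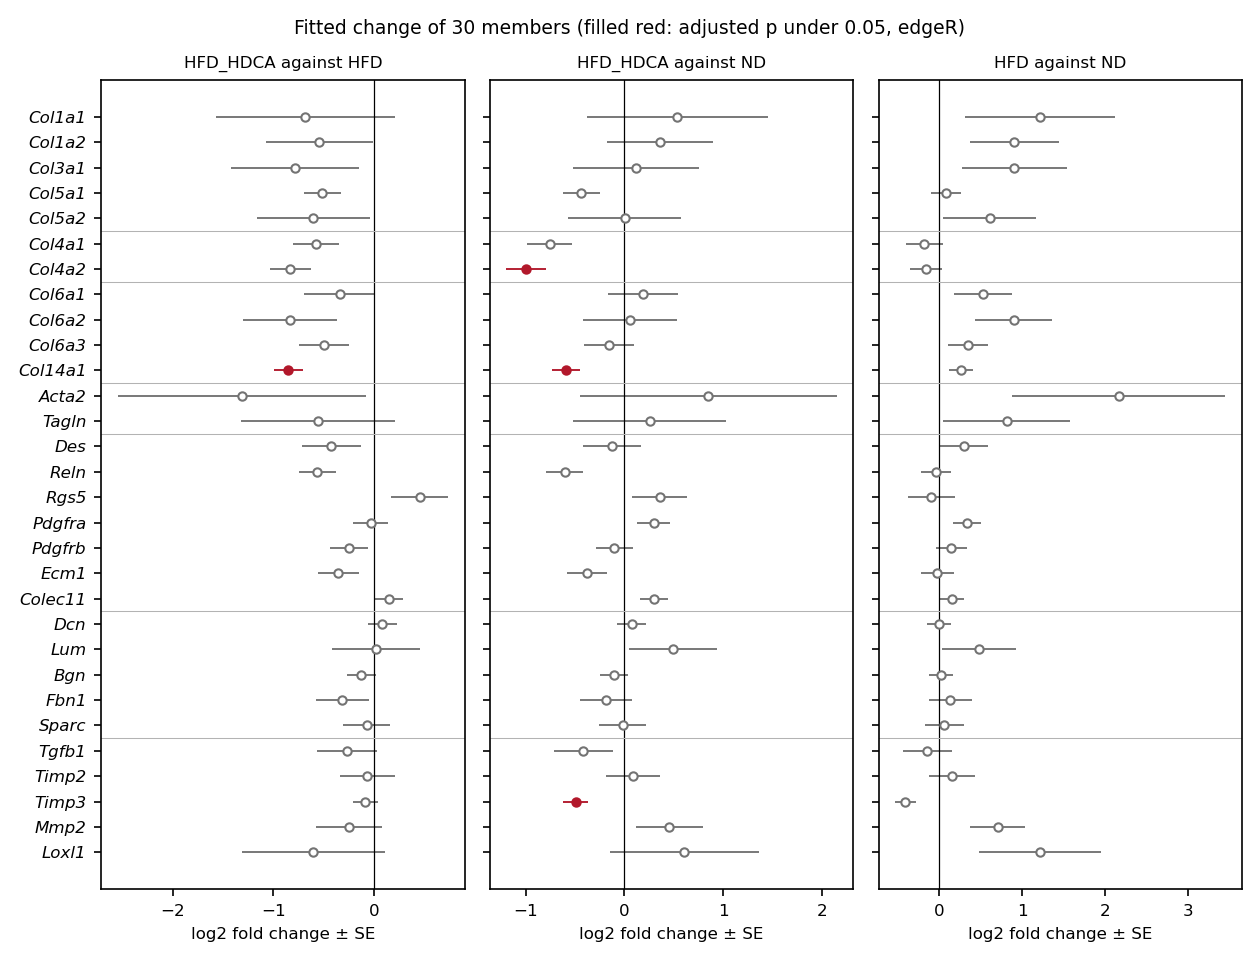
Fitted log2 fold change of the 30 tested members with its standard error, in HFD_HDCA against HFD, HFD_HDCA against ND and HFD against ND (filled red points have an edgeR adjusted p under 0.05). Col14a1 at -0.85 is the filled point against HFD, the filled points against ND are Col4a2, Col14a1 and Timp3, and none is filled in HFD against ND.

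Genes that act with the members were taken from lists written by known function. Of 24 tested genes of TGF-β signalling, 0 rose and 1 fell in HFD_HDCA against HFD, and 0 rose and 3 fell against ND. Of all tested genes 1.67% rose and 1.73% fell against HFD, and 3.65% rose and 2.82% fell against ND. Ctgf, a matricellular protein and classic target of TGF-β and of YAP (mm10, chr10:24595442-24598682), had 2.73, 2.27 and 2.17 CPM in HFD_HDCA livers, 14.0, 7.32 and 8.91 CPM in HFD livers and 24.6, 14.0 and 11.3 CPM in ND livers. Every HFD_HDCA liver was below every other liver. Ctgf fell by 2.08 on the log2 scale against HFD (SE 0.35, adjusted p = 0.0144) and by 2.80 against ND (SE 0.35, adjusted p = 0.00279, edgeR), and the call against HFD was lost without HFD_HDCA 3 (adjusted p = 0.0659). The receptor-activated transcription factor Smad3 fell by 0.81 against ND (adjusted p = 0.0119) and Ltbp4, which anchors latent TGF-β in the matrix, by 0.70 (adjusted p = 0.0255, edgeR). The Smad3 call held in all 9 leave-one-out fits and the Ltbp4 call in 4, with an adjusted p of up to 0.103.

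Of 43 other matrix genes, 0 rose and 2 fell in HFD_HDCA against HFD, and 0 rose and 1 fell against ND. The shares of all genes that fell were 1.73% against HFD and 2.82% against ND. Tnc, encoding tenascin-C, a glycoprotein of healing tissue, had 0.182, 0.349 and 0.301 CPM in HFD_HDCA livers, 0.975, 2.12 and 1.56 CPM in HFD livers and 2.24, 1.14 and 0.925 CPM in ND livers. Tnc fell by 2.46 against HFD (adjusted p = 0.0290) and by 2.35 against ND (adjusted p = 0.0235, edgeR), on 3, 6 and 5 reads in HFD_HDCA livers 1, 2 and 3. The laminin chain Lamb1, which like type IV collagen belongs to basement membranes, fell by 0.78 against HFD (adjusted p = 0.0306, edgeR). In leave-one-out fits the Tnc call held in 5 of 9 against HFD and 6 of 9 against ND, and the Lamb1 call in 5 of 9, with adjusted p of up to 0.101. With limma on log2 FPKM plus 0.1, a pseudocount near the level of Tnc, its log2 fold change was -1.01 against HFD and -0.85 against ND, and neither was called (adjusted p = 0.0857 and 0.114).

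Of 30 further stellate cell markers, 0 rose and 2 fell in HFD_HDCA against HFD, and 1 rose and 1 fell against ND. Over all genes 1.73% fell against HFD, and 3.65% rose and 2.82% fell against ND. The metalloreductase gene Steap4 had 69.8, 47.0 and 68.6 CPM in HFD_HDCA livers, 123, 154 and 128 CPM in HFD livers and 127, 109 and 108 CPM in ND livers, with no overlap between HFD_HDCA and either other group. Steap4 fell by 1.13 against HFD (adjusted p = 0.00825) and by 0.89 against ND (adjusted p = 0.0126, edgeR), the call against ND being lost without ND 1 (adjusted p = 0.0657). The chemokine Cxcl12 rose against ND by 0.57 on the log2 scale (adjusted p = 0.0358, held in 3 of 9 leave-one-out fits), and Sod3, an extracellular superoxide dismutase, fell by 0.43 against HFD (adjusted p = 0.0453, held in 1 of 9, edgeR). Steap4 and Cxcl12 are also made by other liver cells.

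Of 13 genes of PDGF signalling, the receptors included, 0 rose and 1 fell in HFD_HDCA against HFD, and 0 rose and 2 fell against ND. The shares of all genes that fell were 1.73% against HFD and 2.82% against ND. Pik3r1, the regulatory subunit of phosphoinositide 3-kinase, had 36.1, 48.3 and 42.2 CPM in HFD_HDCA livers, 88.2, 111 and 96.8 CPM in HFD livers and 64.6, 62.8 and 67.8 CPM in ND livers. It fell by 1.22 against HFD (adjusted p = 0.00283) and by 0.62 against ND (adjusted p = 0.0208, edgeR), and Plcg1, a phospholipase that PDGF receptors recruit, fell by 0.61 against ND (adjusted p = 0.0120). The Pik3r1 call held in 9 of 9 leave-one-out fits against HFD and in 5 of 9 against ND, and the Plcg1 call in 8 of 9. Of 23 other matrix proteases and inhibitors, Mmp19 fell by 0.66 against HFD (adjusted p = 0.0306) and by 0.63 against ND (adjusted p = 0.0252), and Mmp11 rose by 1.34 against ND (adjusted p = 0.0380, edgeR). The share of all genes that rose against ND was 3.65%. The Mmp19 call held in 4 of 9 leave-one-out fits against HFD and 6 of 9 against ND, and the Mmp11 call in 4 of 9.

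edgeR called 0 of 23 collagen processing genes in each comparison. At an unadjusted p under 0.05 they were 2 higher and 2 lower in HFD_HDCA against HFD, 2 higher and 2 lower in HFD_HDCA against ND, and 0 higher and 2 lower in HFD against ND, where 22.0%, 26.1% and 11.5% of all genes passed in either direction. DESeq2 called 0 higher and 1 lower in each comparison with HFD_HDCA. The collagen chaperone Serpinh1 had 12.8, 10.4 and 10.4 CPM in HFD_HDCA livers, 14.0, 20.2 and 19.2 CPM in HFD livers and 14.8, 17.3 and 13.8 CPM in ND livers, all HFD_HDCA livers being below all others (adjusted p = 0.0553 against HFD, edgeR). In HFD against ND edgeR called 0 genes of any of the lists named in these paragraphs, while DESeq2 called 1 higher among the PDGF genes and 1 higher among the other matrix genes. At an unadjusted p under 0.05 that comparison had 3 higher and 1 lower of the further stellate cell markers, 2 higher and 3 lower of the TGF-β genes, 2 higher and 1 lower of the PDGF genes, 4 higher and 1 lower of the other matrix genes, and 2 higher and 0 lower of the proteases and inhibitors.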

How the data were processed

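The authors' deposited tables of HTSeq counts per gene held whole numbers with no normalization, 1 table a library. Per the file headers, the authors' Cufflinks tables held FPKM, fragments scaled to transcript length and library size, used for levels between genes and for an alternative test on log2 FPKM. TopHat 1.3.2, the mm10 build and Cufflinks 2.0.2 are credited to the submitters' processing notes. The HTSeq version and annotation are not given in the sources used here, and neither is the setting behind the word antisense in the names of the count tables. Reads on genes made up 63.9 to 72.1% of the reads in a table, and reads assigned to no gene were left out.

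Counts were tested in R 4.3.3 with edgeR 4.0.16 (filterByExpr with a minimum count of 10, TMM factors, robust quasi-likelihood fit of all 9 libraries, 3 contrasts, Benjamini-Hochberg adjustment over 12587 genes, two-sided). Standard errors of edgeR log2 fold changes are the size of the change divided by the square root of the quasi-likelihood F. DESeq2 1.42.0, limma 3.58.1 on log2 FPKM, other factors, no filter, a replicate block and fits without single libraries were alternatives. The pipeline was tested on simulated data. Groups and replicate numbers came from the sample titles. Nothing in the labels says what a replicate number shares, so p-values measure the spread between these samples. The 32 members, the lists and the alternatives were chosen with earlier results of these data known. All members are given with every library. From the other lists, up to 4 genes past the threshold with the smallest p were named, or up to 2 as values where none passed, and the marker genes Dpt, Myh11, Cnn1 and Actg2 were chosen after their values were seen. Positions are the deposited mm10 loci, and promoters and their starts come from RefSeq. By the gene bounds of the GENCODE annotation, which are not the deposited loci, some members overlapped other coding genes. The overlaps were Col4a1 with Col4a2, Tagln with Pcsk7, Fbn1 with Gm9913, Timp1 with Syn1, Timp2 with Cep295nl and Timp3 with Syn3.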

Additional observations from a re-analysis of the deposited data

How the results depend on the processing

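No result changed direction past a threshold. In HFD against ND the count of called members was 0 in all 9 leave-one-out fits and 5 without both HFD 1 and HFD_HDCA 1. In HFD_HDCA against HFD the count of 1 was 2 with DESeq2, with library sizes alone, with no filter on low counts, with limma on log2 FPKM plus 0.1, and without both HFD 2 and HFD_HDCA 1 (an alternative chosen after seeing the data). It was 13 without both HFD 1 and HFD_HDCA 1, and 0 to 4 in leave-one-out fits. In HFD_HDCA against ND the count of 3 was 5 with DESeq2 and without both HFD 1 and HFD_HDCA 1, 1 with upper quartile factors and with limma on log2 FPKM plus 0.1 or plus 1, and 0 to 4 in leave-one-out fits. With the replicate block it was also 1 (Col4a2). Same-numbered libraries did not deviate together, with correlations of -0.149 to 0.153, so the numbers were not read as pairs, and the block changed no other count of called members. Among the other named genes it ended the calls of Tnc and Sod3 in HFD_HDCA against HFD, and of Mylk, Smtn, Cxcl12, Mmp11, Ccr2 and Hnf4a in HFD_HDCA against ND, with adjusted p of 0.0507 to 0.0736.

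The median over all members in HFD_HDCA against HFD was -0.75 without both HFD 1 and HFD_HDCA 1, and -0.532 to -0.0448 in leave-one-out fits. The median of the stellate cell markers in HFD_HDCA against HFD was -0.33 with library sizes alone and with log2 FPKM plus 0.1, -0.07 without both HFD 1 and HFD_HDCA 1, -0.11 without both HFD 2 and HFD_HDCA 1, and -0.300 to -0.0326 in leave-one-out fits. In HFD_HDCA against ND, leaving out either pair gave -0.27 and -0.28 for all members (-0.28 to 0.20 in leave-one-out fits), -0.65 and -0.65 for the collagens (-0.65 to 0.29), and -0.16 and -0.16 for the stellate cell markers (-0.163 to 0.00971), with -0.19 for the markers with library sizes alone. On log2 FPKM plus 0.1 the median of all genes itself moved to 0.11 in HFD against ND and -0.10 in HFD_HDCA against HFD. With library sizes alone the genes called over the whole table in HFD_HDCA against HFD were 128 higher and 312 lower, against 210 and 218 with TMM factors. The cause of these differences was not tested. Timp1, Lox and Tnc had single-digit reads in several libraries, which limits their values.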
